A study of Mus musculus with 6 samples.

Results

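The 10 genes described here serve the storage and handling of fatty acids, and were taken by their symbols: Plin2, Plin3, Plin4, Lpl, Pparg, Cd36, Fabp3, Fabp4, Fabp5 and Pnpla2. All 10 had a row in each of the 6 count tables, which hold 30828 to 32285 gene rows. Each table is a droplet single-cell RNA sequencing library, with 1 library per condition made from cells of 3 pooled mice. The lung cells were GFP+ cells of Pdgfra-GFP reporter mice, which carry green fluorescent protein at the locus of Pdgfra, the receptor that marks these fibroblasts (FBs), so the sort took cells by GFP and not by lipid content. The single-dose libraries were collected 14 days after PBS or after bleomycin, a drug that injures the lung and leads to scarring. The bleomycin dose stands as 2 U/kg in one label field and in the study's methods and as 4 U/kg in another field. The repetitive libraries came from mice of the same reporter that were given PBS or bleomycin on 3 occasions a week apart, and lungs were taken 14 days later. The first and second bleomycin doses were 1 U/kg each and the last was 0.5 U/kg. The organoid libraries were 3D cultures of alveolar type 2 epithelial cells (AEC2s) with GFP+ FBs. Their AEC2s came from tamoxifen-induced SpcCreER, tomato+ mice, and their FBs came from Pdgfra reporter mice 14 days after PBS (normal FBs) or after 2 U/kg bleomycin (fibrogenic FBs).

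Cells keep neutral fat in lipid droplets, which are coated by perilipins and are filled from fatty acids that the cell makes or takes up. Lipofibroblasts (LipoFBs) are FBs of the alveolar wall known for such droplets and for passing lipid to AEC2s, which need it for surfactant. Plin2, Plin3 and Plin4 encode droplet coat proteins, Lpl encodes lipoprotein lipase, which frees fatty acids from circulating triglyceride, and Pnpla2 encodes the lipase that starts the breakdown of stored triglyceride. Pparg encodes a nuclear receptor for fatty acids that drives fat cell genes, Cd36 encodes a fatty acid uptake receptor, and Fabp3, Fabp4 and Fabp5 encode carriers that bind fatty acids in the cytosol.

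In mouse genome build GRCm38.p6, RefSeq places Plin2 at chr4:86626910-86670217, Fabp3 at chr4:130308738-130315463, Plin3 at chr17:56278962-56290511 and Plin4 at chr17:56100587-56109948. Lpl lies at chr8:68880555-68906932, Pnpla2 at chr7:141455188-141460743, Pparg at chr6:115360879-115490404 and Cd36 at chr5:17781690-17888959. Fabp4 and Fabp5 lie on 1 chromosome, at chr3:10204342-10208616 and chr3:10012585-10016610. The RefSeq promoter table held 9 windows for 7 of the 10 genes. The 250 bases before each start were searched for AGGTCA, the core element that nuclear receptors such as the Pparg protein bind, on both strands. At least 1 match stood in 4 of the 9 windows, those of Plin2, Cd36 and 2 of the 3 Pparg starts, against 14% of 32851 windows of all genes. A direct repeat of this element with 1 base between its copies, whose matches are also matches of the single element, stood in none of the 9 windows and in 0.0335% of all windows. A match of letters describes the window and shows no binding. The windows of Plin2, Cd36 and Pparg are shown because these genes were lower in FBs after repetitive bleomycin. Fabp3, which was lower too, had no match in its window. The windows shown are written 5′ to 3′ on the gene's strand in lower case, with the element (here as its reverse complement) in capitals. Bases that the annotation gives to an exon were left out, as were gene bases where the outer end of the gene fell inside a window. The Cd36 and Pparg windows shown lie wholly inside the span given above for their gene, before an inner start. The Plin2 stretch (minus strand) is chr4:86670218-86670309, the Cd36 window (minus strand) is chr5:17835897-17836146, and the Pparg window (plus strand), which holds no match, is chr6:115421816-115422065. The other 2 Pparg windows are not shown, and their matches lie in bases that the annotation gives to an exon.
Plin2: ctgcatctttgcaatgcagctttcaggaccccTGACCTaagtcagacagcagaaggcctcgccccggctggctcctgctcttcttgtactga
Cd36: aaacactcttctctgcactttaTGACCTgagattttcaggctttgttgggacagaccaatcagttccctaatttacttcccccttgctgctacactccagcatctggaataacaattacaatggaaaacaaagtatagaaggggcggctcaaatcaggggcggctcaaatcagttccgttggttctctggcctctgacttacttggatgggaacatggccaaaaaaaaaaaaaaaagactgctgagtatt
Pparg: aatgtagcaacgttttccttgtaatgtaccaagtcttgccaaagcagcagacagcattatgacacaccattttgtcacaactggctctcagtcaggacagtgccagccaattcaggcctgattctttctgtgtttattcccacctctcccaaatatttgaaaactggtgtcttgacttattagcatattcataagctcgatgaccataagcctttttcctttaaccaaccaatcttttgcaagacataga

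The tables held 7201081 to 238618743 UMIs (unique molecular identifiers, each counting 1 captured RNA molecule) in 1015 to 10737 barcodes. Between 5.31% and 43.7% of a library's barcodes had fewer than 2000 UMIs, the most in repetitive bleomycin, and were left out of the cell groups. Libraries shared between 0 and 30 barcodes. Cells were placed by gates on marker genes, none of which is 1 of the 10 genes: an FB gate needed at least 3 of 8 FB markers and fewer than 3 of any other lineage, and the FB subsets and AEC2s needed at least 3 of their own markers. The FB gate held 851 cells in single-dose PBS, 785 in single-dose bleomycin, 5103 in repetitive PBS and 5101 in repetitive bleomycin. Its Pdgfra level was 515, 284, 588 and 369 CPM (counts per 1000000 UMIs of the gate) in that order, and its summed level of 8 endothelial markers was 230, 152, 146 and 142 CPM. The 8 macrophage or monocyte markers summed to 51.9, 70.8, 14.9 and 37.9 CPM there, and all 8 of either list had UMIs in every FB gate. The 6 B or plasma cell markers summed to 199 CPM in repetitive bleomycin and to 2.33 to 7.53 CPM in the other lung libraries. The 6 mural or smooth muscle markers, of which 5 had UMIs in single-dose PBS (Myh11 was at 0) and all 6 elsewhere, summed to 108 and 286 CPM in the single-dose pair and to 72.1 and 159 CPM in the repetitive pair, higher with bleomycin as Lpl was. The part of these cells or of their free RNA in the values below was not tested.

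Each condition has 1 library, so bleomycin and PBS are compared within each experiment by size alone and the spread between mice is unknown. A test over both experiments together follows the values. A gene is called higher or lower where its CPM differed at least 2-fold, after adding 1 CPM to both, with at least 20 UMIs over both sums. Bracketed ranges on CPM are exact 95% Poisson intervals, and bracketed ranges on log2 ratios are exact 95% intervals of the ratio without the added CPM, and both cover counting error only. Levels are compared between samples and not between genes.

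In the FB gate after a single dose, Lpl, Fabp4 and Fabp5 were higher with bleomycin and Fabp3 was lower. That is 3 higher and 1 lower of 9 genes tested, where 12.8% of the 12138 genes tested were past 2-fold, 9.06% higher and 3.73% lower. After repetitive doses, the same 3 genes were higher, and Plin2, Pparg, Cd36 and Fabp3 were lower. Of these repetitive calls, those of Lpl, Plin2 and Fabp3 held in 12 of 12 alternatives, Fabp4 in 11, Cd36 in 10, Fabp5 in 9 and Pparg in 8. Fabp5 was at 0.84 without the deepest 5% of barcodes, and Cd36 at −0.76 with 5 CPM added. That is 3 higher and 4 lower of 10, where 7.45% of 17214 genes were past 2-fold, 5.8% higher and 1.65% lower. The median log2 ratio of the genes tested was −0.40 and −0.52 in the single-dose and repetitive experiments, beside 0.09 and 0.10 over all genes tested.

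**Figure D1:**
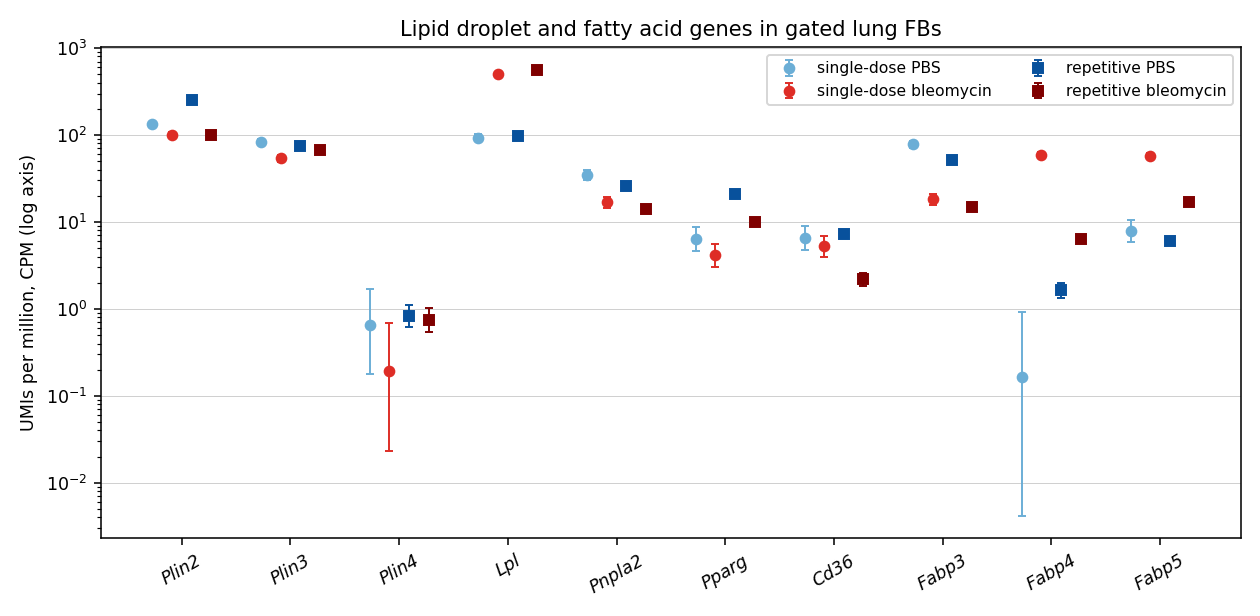
Level of each of the 10 genes in the FB gate of the 4 lung libraries, as CPM on a log axis. Points are single libraries and bars are exact 95% Poisson intervals of the counts. Lpl sits near 95 CPM in both PBS libraries and above 500 CPM in both bleomycin libraries, and Fabp3 is lower in both bleomycin libraries.

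Among the droplet coat genes, Plin2 was at 133 CPM [124, 143] in single-dose PBS, 101 in single-dose bleomycin, 252 in repetitive PBS and 98.9 in repetitive bleomycin. The bleomycin libraries were nearly level, and the PBS libraries differed from each other more than the single-dose pair did. The log2 ratio was −0.40 [−0.54, −0.27] after a single dose, short of 2-fold, and −1.34 [−1.40, −1.31] after repetitive doses. Plin3, which coats small new droplets, was at 83.4, 53.9, 75.2 and 66.4 CPM in the same order, with log2 ratios of −0.62 and −0.18, neither past 2-fold. Plin4 was scarcely detected, with 4 and 2 UMIs in the single-dose FBs and 48 and 42 UMIs in the repetitive FBs, so that a difference was not detectable at this depth.

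Of the lipases, Lpl was at 93.5 CPM in single-dose PBS and 502 in single-dose bleomycin, from 566 and 5200 UMIs. In the repetitive libraries it was at 97.7 and 558 CPM, from 5646 and 31184 UMIs. The PBS libraries were alike, as were the bleomycin libraries, and the log2 ratios were 2.41 [2.30, 2.55] and 2.50 [2.47, 2.56]. With every cell thinned to 2000 UMIs, 12.1% and 46.2% of single-dose FBs, and 12.1% and 50.8% of repetitive FBs, had an Lpl UMI. In the T or NK cells of the repetitive libraries, which should lack Lpl, the shares were 1.56% of 64 cells and 0 of 41 cells, which allows a share of up to 7.32%, at the same thinned depth. No barcode held more than 5.83% of the Lpl UMIs of an FB gate. Pnpla2 ran the other way, at 34.7 and 16.9 CPM after a single dose and 26.2 and 13.9 CPM after repetitive doses. Its log2 ratios of −0.996 [−1.34, −0.74] and −0.86 [−1.04, −0.78] were short of the 2-fold limit. Over the alternatives it was past that limit in 6 of 12 after a single dose, down to −1.30 with a mean over cells. After repetitive doses it was past it in 1 of 12.

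The receptor Pparg was at 6.44 CPM in single-dose PBS and 4.15 in single-dose bleomycin, from 39 and 43 UMIs, and its counting interval, −1.29 to 0.03 on the log2 scale, included 0. In the repetitive libraries it was at 20.9 and 9.88 CPM, from 1209 and 552 UMIs, with a log2 ratio of −1.01 [−1.23, −0.94], which was no longer past 2-fold without the barcode highest for Pparg in each library. Cd36 was at 6.61 and 5.31 CPM after a single dose and 7.18 and 2.18 CPM after repetitive doses, with log2 ratios of −0.27 and −1.36 from 40 and 55 UMIs and from 415 and 122 UMIs. Cd36 in the FB gate was far below its level in gated endothelial cells of the repetitive libraries, 1962 and 2413 CPM. In single cells thinned to 2000 UMIs it was found in 0.529% to 1.39% of FBs. The T or NK cells had 0 of 64 and 0 of 41 cells, which allow shares of up to 4.69% and 7.32%, so the share in FBs was not separable from background at this depth.

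Among the carriers, Fabp3, the heart-type protein, was at 78.0 CPM in single-dose PBS and 18.3 in single-dose bleomycin, and at 51.9 and 15.0 CPM in the repetitive pair. Both bleomycin libraries lay below both PBS libraries, with log2 ratios of −2.04 [−2.35, −1.85] and −1.73 [−1.91, −1.68]. Fabp5, the epidermal-type protein, was at 7.93 and 57.1 CPM after a single dose and 6.12 and 16.8 CPM after repetitive doses, with log2 ratios of 2.70 and 1.32. Fabp4, the fat cell protein, had 1 UMI in single-dose PBS and 608 UMIs in single-dose bleomycin, a ratio of 355 with a counting interval of 63.5 to 1.41e+04. It had 95 and 353 UMIs in the repetitive pair, or 1.64 and 6.32 CPM. The ratios of Fabp4 and Fabp5 were above 0 and that of Fabp3 below 0 in both experiments.

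Much of the Fabp4 count sat in few barcodes, and less of the Fabp5 count did. The 10 highest barcodes of the FB gate held 85.2% of the Fabp4 UMIs in single-dose bleomycin, 82.1% in repetitive PBS and 74.5% in repetitive bleomycin. For Fabp5 they held 68.7%, 37.0% and 52.6% in the same order, and 64.6% in single-dose PBS. In single-dose bleomycin, 1 barcode of the FB gate held 478 of the 608 Fabp4 UMIs, 271 of the 591 Fabp5 UMIs and 23 of the 175 Pnpla2 UMIs. This barcode had 34654 UMIs and met no subset gate. It also held 58 UMIs of Adipoq (adiponectin, a fat cell hormone), 26 of Plin1 (the fat cell perilipin) and 389 of Car3. Of the FB markers it held 1 UMI of Pdgfra, 0 of Col1a1 and 14 of Col3a1, and it met the FB gate. With each gene's top barcode left out of both libraries, an alternative chosen after the values were seen, Fabp4 was at 0 and 12.6 CPM, Fabp5 at 5.46 and 31.0 CPM, and Pnpla2 passed the 2-fold limit with a log2 ratio of −1.16.

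FBs were also split by mesothelial FB (MEFB) markers, counted on all UMIs of a cell and not on thinned cells, into groups smaller than the gates used elsewhere. In the repetitive libraries, 7 cells in PBS and 11 in bleomycin had at least 3 of 6 MEFB markers. Those cells had Fabp4 at 425 and 586 CPM and Fabp5 at 786 and 1269 CPM. The other FBs, 5096 and 5090 cells, had Fabp4 at 0.953 and 3.61 CPM and Fabp5 at 4.85 and 10.9 CPM, and part of this lay in cells just under the limit. In repetitive bleomycin, the 379 cells with exactly 2 markers held 114 of the 201 Fabp4 UMIs of the other FBs, and 65 and 36 of these were in 2 barcodes that also carried Wt1 and Wnt4. With fewer than 2 markers, a split added after the values were seen, the 4270 and 4711 cells had Fabp4 at 0.764 and 1.79 CPM and Fabp5 at 5.05 and 8.07 CPM. Most cells with at least 2 MEFB markers met the LipoFB gate described below, 808 of 833 in repetitive PBS and 259 of 390 in repetitive bleomycin. Those LipoFB cells held 0 and 1 Fabp4 UMIs.

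In single-dose bleomycin, the 14 cells with at least 3 MEFB markers had Fabp4 at 66.7 CPM, from 14 of the 608 UMIs, beside 58.5 CPM in the other 771 FBs, which include the barcode with 478 UMIs. Fabp5 was at 267 CPM in those 14 cells and at 52.7 CPM in the others. In single-dose PBS, 1 cell with at least 3 MEFB markers held 15 of the 48 Fabp5 UMIs and 0 Fabp4 UMIs. The barcode highest for Fabp4 in repetitive bleomycin, with 74 of the 353 UMIs, carried 16 UMIs of Wt1 and 12 of Wnt4, both mesothelial genes. Macrophages, in which both carriers are well known, had Fabp5 at 96.0 CPM in repetitive PBS and 2009 CPM in repetitive bleomycin, and Fabp4 at 51.4 and 272 CPM.

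**Figure D2:**
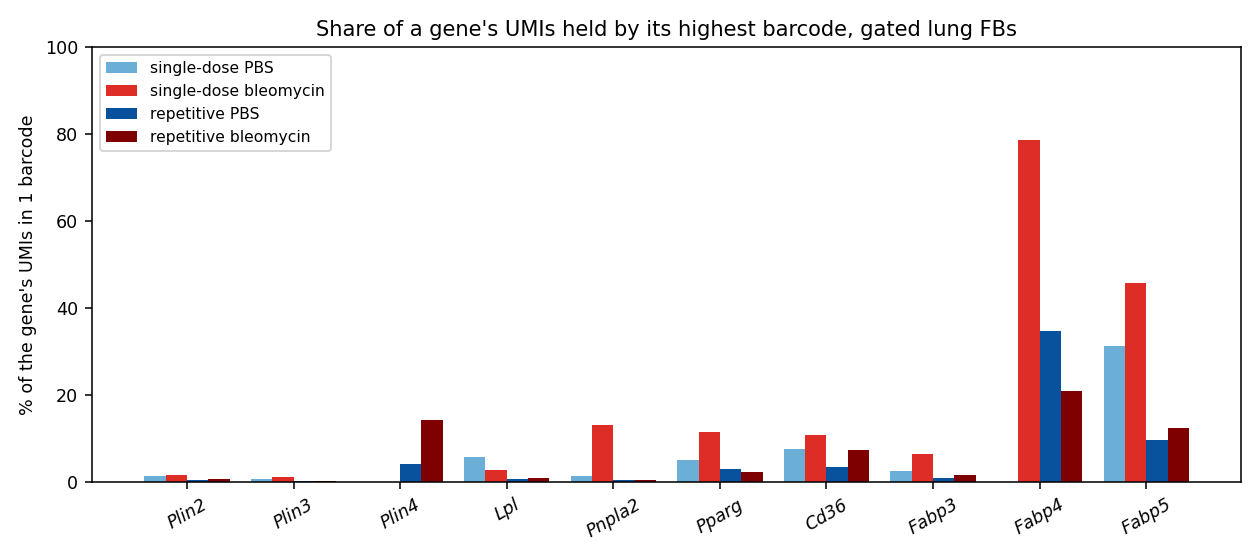
Share of each gene's UMIs that its highest barcode held, in percent, for genes with at least 20 UMIs in the FB gate of a lung library. Bars are single libraries without replicates. Fabp4 stands out at 78.6% in single-dose bleomycin and Fabp5 at 45.9%, while Lpl, Plin2, Plin3 and Fabp3 stay below 7%.

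Next, the same comparison was made inside subsets. The LipoFB gate (at least 3 of 10 markers such as Tcf21, Npnt and Ces1d) held 675 and 288 cells in the single-dose libraries and 4056 and 2061 cells in the repetitive libraries. These were a smaller part of the FB gate with bleomycin, 288 of 785 beside 675 of 851, and 2061 of 5101 beside 4056 of 5103. The sums of the FB gate therefore mix subsets in unlike proportions, and the part of this in their ratios was not tested. The MatrixFB gate (markers such as Pi16, Ly6a and Col14a1) held 120 and 207, and 766 and 1865 cells. The 10 leading genes of the MatrixFB gate of repetitive bleomycin included Ighg2c, Iglc3 and Igkc, which are antibody genes of plasma cells.

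Within LipoFBs, Lpl was again higher with bleomycin and Fabp3 lower in both experiments. After a single dose, 3 genes (Lpl, Fabp4 and Fabp5) were higher and 2 (Fabp3 and Pnpla2) lower of 9 tested, where 9.48% of all genes tested were past 2-fold, 5.93% higher and 3.55% lower. After repetitive doses, Lpl alone was higher and Plin2, Cd36 and Fabp3 were lower of 10 tested, where 6.75% of all genes were past 2-fold, 5.3% higher and 1.45% lower. The median over the genes tested was −0.20 and −0.52 on the log2 scale, beside 0.06 and 0.10 over all genes, and it was the same with Fabp4 put at its bound.

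The mural or smooth muscle markers summed to 93.7 and 214 CPM in the LipoFB gate of the single-dose pair and to 64.1 and 120 CPM in the repetitive pair. LipoFB Lpl was at 70.6 CPM in single-dose PBS, 423 in single-dose bleomycin, 78.5 in repetitive PBS and 577 in repetitive bleomycin, with log2 ratios of 2.56 [2.41, 2.76] and 2.86 [2.83, 2.93]. LipoFB Fabp3 was at 94.9, 33.3, 63.1 and 21.3 CPM, with log2 ratios of −1.49 and −1.52. The 2 experiments were close for both genes. Plin2 was not: it was at 157 and 171 CPM in single-dose LipoFBs, a log2 ratio of 0.12 [−0.04, 0.28], and at 296 and 135 CPM in repetitive LipoFBs, a log2 ratio of −1.13 [−1.19, −1.08]. The repetitive PBS library was the highest of the 4.

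Pparg in LipoFBs was at 7.55 and 5.50 CPM after a single dose, from 36 and 19 UMIs, and at 24.9 and 14.5 CPM after repetitive doses, with log2 ratios of −0.40 and −0.74, neither past 2-fold. Cd36 was at 7.13 and 6.08 CPM, and at 8.24 and 2.35 CPM. Pnpla2 was at 36.5 and 15.3 CPM, a log2 ratio of −1.20 [−1.72, −0.80], and at 27.7 and 14.6 CPM, a log2 ratio of −0.88 [−1.09, −0.75]. Fabp4 had 0 UMIs in single-dose PBS LipoFBs and 26 in single-dose bleomycin LipoFBs, at least 12-fold higher against a floor of 3 UMIs in the PBS gate. It had 5 and 19 UMIs in the repetitive LipoFBs. Fabp5 was at 3.98 and 24.6 CPM after a single dose and at 3.89 and 7.41 CPM after repetitive doses.

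**Figure D3:**
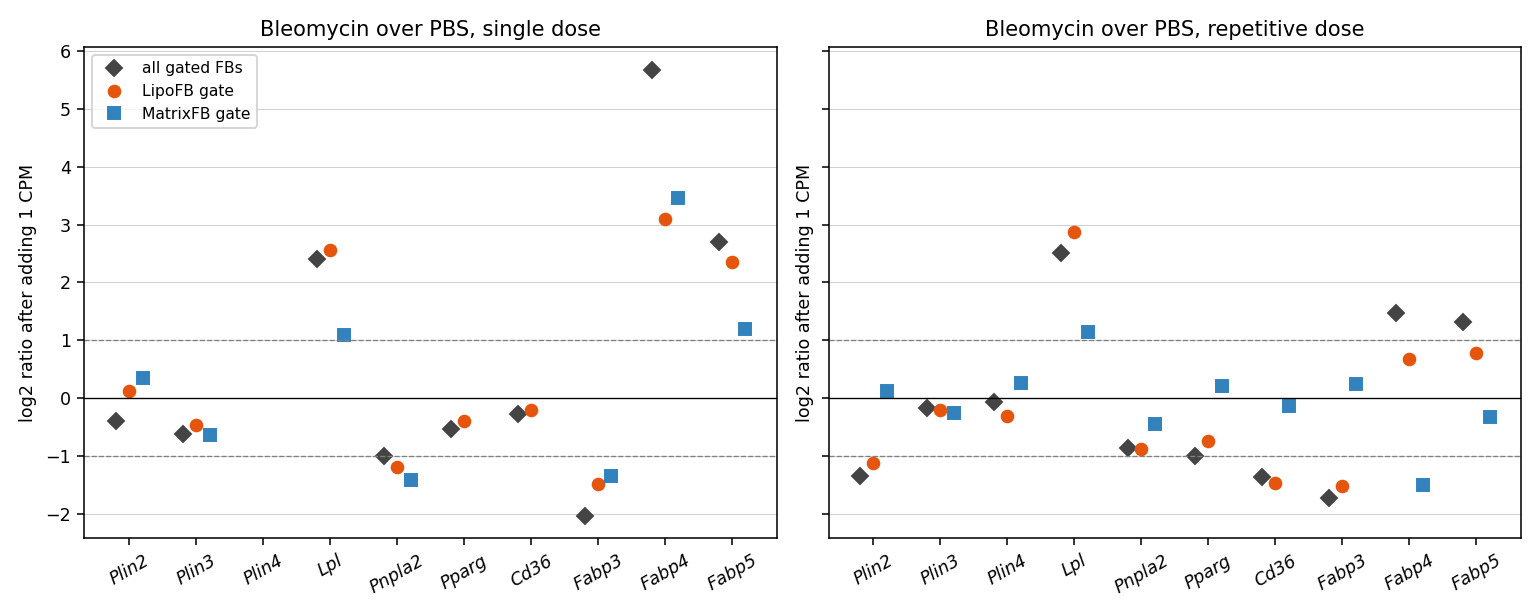
Log2 ratio of bleomycin over PBS after adding 1 CPM, for each gene with at least 20 UMIs, in all gated FBs, the LipoFB gate and the MatrixFB gate. Each point compares 2 libraries, without replicates, and dashed lines mark 2-fold. Lpl is above the upper line in all 3 gates of both experiments, and Fabp3 is below the lower line except in the MatrixFB gate of the repetitive experiment.

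In the MatrixFB gate, a comparison added after the values were seen, Lpl was at 142 and 303 CPM after a single dose and at 164 and 363 CPM after repetitive doses, with log2 ratios of 1.09 [0.81, 1.39] and 1.14 [1.06, 1.23]. After a single dose 3 genes (Lpl, Fabp4 and Fabp5) were higher and 2 (Fabp3 and Pnpla2) lower of 7 tested, where 10.2% of all genes were past 2-fold, 6.85% higher and 3.31% lower. Fabp4 had 1 and 51 UMIs in these sums and again could only be called higher. After repetitive doses Lpl was higher and Fabp4 lower of 10 tested, where 4.79% were past 2-fold, 3.32% higher and 1.47% lower. The Fabp4 ratio of −1.50 was past 2-fold in 6 of 11 alternatives. It was −0.84 without its highest barcode, and its sign turned with gates of 4 markers (0.0671) and with gates on full counts (0.0858). Plin2 was low in this gate, at 31.0, 39.6, 50.3 and 54.7 CPM in the 4 libraries, with log2 ratios of 0.34 [−0.29, 1.04] and 0.12 [−0.05, 0.30]. Fabp3 had 11 and 10 UMIs after a single dose, and was at 5.53 and 6.70 CPM after repetitive doses with a log2 ratio of 0.24. Fabp5 was at 14.3 and 34.2 CPM and at 11.1 and 8.64 CPM, log2 ratios of 1.20 and −0.32. The counting intervals of both repetitive ratios included 0, −0.24 to 0.82 for Fabp3 and −0.75 to 0.05 for Fabp5, and Fabp5 was at 0.64 where a gate needed 4 markers. Pnpla2 was at 29.8 and 10.5 CPM and at 17.97 and 12.8 CPM, and Plin3 was at 89.5 and 56.9 CPM and at 87.9 and 73.2 CPM. Pparg, Cd36 and Plin4 had at most 5 UMIs over both single-dose sums, and their repetitive ratios of 0.21, −0.14 and 0.27 had counting intervals that included 0.

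Across the FB subsets of the bleomycin libraries, Lpl was at 629 and 958 CPM in the MyoFB gate (49 and 125 cells), 550 and 720 in the Sfrp1 FB gate (64 and 203 cells) and 719 and 711 in FBs that met no subset gate. Its lowest levels there were the 303 and 363 CPM of the MatrixFB gate. In single-dose bleomycin the counting intervals of the MyoFB and Sfrp1 FB gates met, at 581 to 679 and 504 to 599 CPM. Of the Sfrp1 FB cells, 62.5% and 61.1% stood at the smallest number of markers that the gate allows. Plin2 was lower in the MyoFB gate, at 35.1 and 66.9 CPM, than in the LipoFB gate of the same libraries, at 171 and 135 CPM. Pparg had 0 UMIs in the 49 MyoFB cells of single-dose bleomycin, which allows up to 2.93 CPM.

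**Figure D4:**
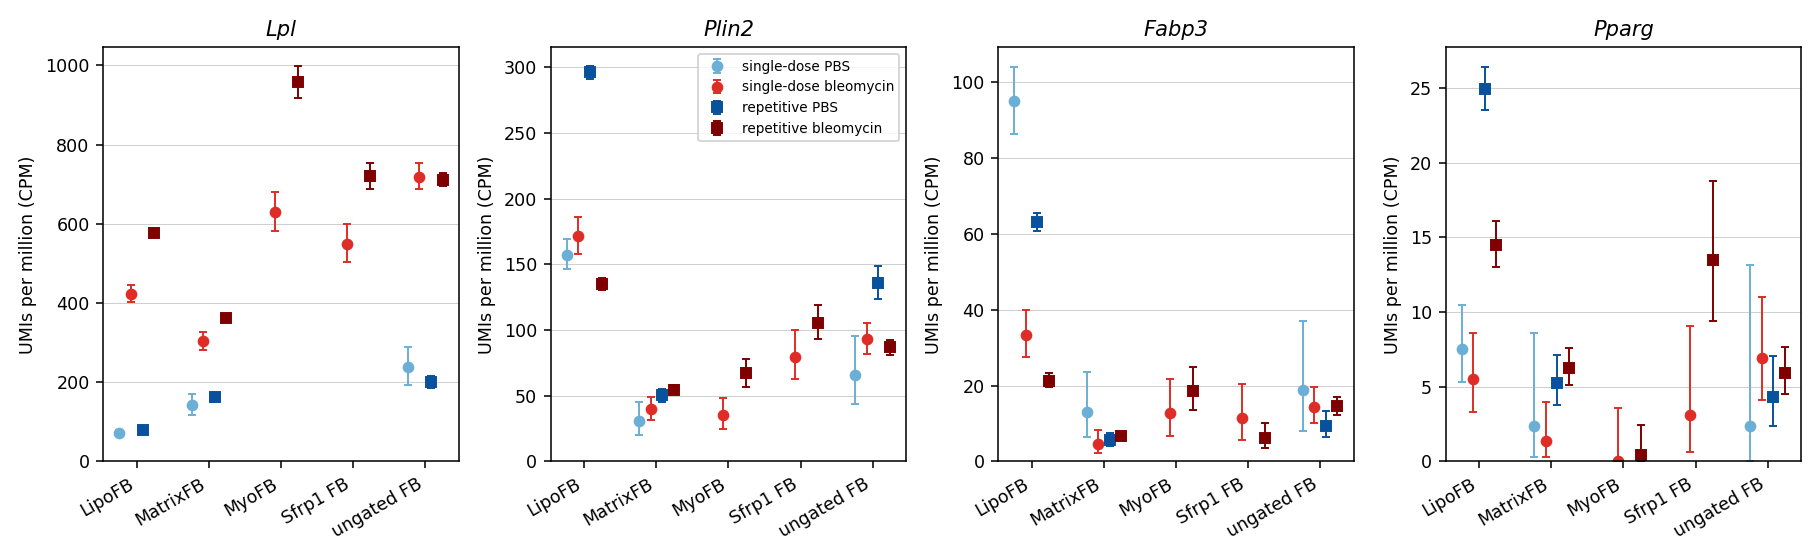
Levels of Lpl, Plin2, Fabp3 and Pparg in the FB subset gates with at least 20 cells of each lung library, as CPM on linear axes from 0. Points are single libraries and bars are exact 95% Poisson intervals. Plin2, Fabp3 and Pparg are highest in the LipoFB gate of a PBS library, while Lpl is highest in the MyoFB gate of repetitive bleomycin at 958 CPM.

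The PBS and bleomycin libraries of the single-dose and repetitive experiments form 2 pairs. A test of bleomycin against PBS over both pairs, added after the values were seen, used edgeR's quasi-likelihood test with the experiment as a block and Benjamini-Hochberg adjustment over all genes. It leaves 1 residual degree of freedom, so its p-values lean on the spread shared across genes, and it treats unlike dose schedules as 1 treatment. In this and the later edgeR test, an SE is the size of the log2 difference divided by the square root of the test's F value. It leans on the same shared spread and does not measure the spread between mice. In the FB gate 9 of the 10 genes passed, 3 higher and 6 lower, where 19.2% of 13285 genes passed, 10.9% higher and 8.26% lower. In the LipoFB gate 5 of 9 passed, 2 higher and 3 lower, where 11.4% of 11936 genes passed, 6.48% higher and 4.93% lower. With the experiment term dropped, 0 genes passed in either gate. With DESeq2 and the block, 6 and 4 members passed, where 12.5% and 7.98% of all genes passed.

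Lpl was 2.36 higher with bleomycin on the log2 scale in the FB gate (SE 0.16, edgeR adjusted p = 1.98e-08) and 2.65 higher in the LipoFB gate (SE 0.15, edgeR adjusted p = 0.000153). Fabp3 was 2.04 lower in the FB gate (SE 0.17, edgeR adjusted p = 1.46e-07) and 1.63 lower in the LipoFB gate (SE 0.14, edgeR adjusted p = 0.000776). Pnpla2 was 1.07 and 1.14 lower (edgeR adjusted p = 0.000137 and 0.00621). These 3 genes passed in both gates with both tools.

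Plin2 was 0.99 lower in the FB gate (SE 0.20, edgeR adjusted p = 0.00163) and did not pass in the LipoFB gate (−0.62, SE 0.28, edgeR adjusted p = 0.229). LipoFBs were a smaller part of the FB gate with bleomycin, and the part of this shift in the FB gate values was not tested. Pparg was 1.05 and 0.81 lower (edgeR adjusted p = 0.00255 and 0.0384), and the LipoFB call was lost with DESeq2 (adjusted p = 0.36). Cd36 was 1.25 lower and Plin3 0.50 lower in the FB gate (edgeR adjusted p = 0.0165 and 0.0332), both lost with DESeq2 (adjusted p = 0.144 and 0.0566), and neither passed in the LipoFB gate.

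Fabp5 was 1.91 higher in the FB gate (edgeR adjusted p = 2.82e-05) and missed the threshold in the LipoFB gate (1.44, edgeR adjusted p = 0.0528). Fabp4 was 3.12 higher in the FB gate (edgeR adjusted p = 0.000387), a call lost with DESeq2 (adjusted p = 0.134). It was 3.78 higher in the LipoFB gate (SE 0.97, edgeR adjusted p = 0.0477). The LipoFB value rests on 0 and 26 UMIs after a single dose and 5 and 19 UMIs after repetitive doses. In single-dose bleomycin, 1 barcode of the FB gate held 78.6% of the Fabp4 UMIs and 45.9% of the Fabp5 UMIs. Without that barcode Fabp4 was 2.57 higher and Fabp5 1.55 higher (edgeR adjusted p = 0.00124 and 4.72e-05). In repetitive bleomycin, 11 cells with at least 3 MEFB markers held 152 of the 353 Fabp4 UMIs and 329 of the 937 Fabp5 UMIs. In repetitive PBS, 7 such cells held 40 of 95 and 74 of 354. The test of bleomycin against PBS was not run without these cells. Plin4 did not pass in the FB gate (edgeR adjusted p = 0.671).

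The LipoFB and MatrixFB gates could be compared with a test, since each of the 4 lung libraries holds both. Counts were summed per gate and library and fitted with the library as a block in edgeR's quasi-likelihood test, with Benjamini-Hochberg adjustment over 10956 genes and the gate markers left out. Of the 10 genes, 6 of 9 tested differed, 4 of them higher and 2 lower in LipoFBs, where 11.5% of all genes were higher and 13.4% lower, 24.9% in all. Plin2, Pparg, Fabp3 and Pnpla2 were higher in LipoFBs, and Fabp4 and Fabp5 were lower. The libraries are separate pools of mice, and the block takes out differences in level between them. The p-values rest on how far the difference between gates varied over the 4 libraries, which includes any effect of treatment on it. With few residual degrees of freedom they also lean on the spread shared across genes.

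Plin2 was 2.02 higher in LipoFBs on the log2 scale (SE 0.20, edgeR adjusted p = 0.000131) and was higher in 4 of 4 libraries. Fabp3 was 2.58 higher (SE 0.28, edgeR adjusted p = 0.000203), and Pparg was 1.68 higher (SE 0.23, edgeR adjusted p = 0.000781), both in 4 of 4 libraries. These 3 calls held without each library in turn and under each gate and tool alternative, but Pparg was not called with no library block (adjusted p = 0.179). Pnpla2 was 0.39 higher (SE 0.12, edgeR adjusted p = 0.0496). Its call was lost with DESeq2 (adjusted p = 0.112) and without single-dose PBS, single-dose bleomycin or repetitive PBS (edgeR adjusted p = 0.0991, 0.097 and 0.356). It was also lost with gates of 4 markers or on full counts (edgeR adjusted p = 0.0565 and 0.0662). The same held without the deepest 5% of barcodes and with no library block (edgeR adjusted p = 0.0614 and 0.973).

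Fabp4 was 3.04 lower in LipoFBs on the log2 scale (SE 0.74, edgeR adjusted p = 0.0151). The call was lost without single-dose PBS and with no library block (edgeR adjusted p = 0.0544 and 0.666). The difference was −1.79 without repetitive PBS and −1.36 where a gate needed 4 markers. Fabp5 was 0.87 lower (SE 0.25, edgeR adjusted p = 0.0353). Its call was lost without single-dose PBS, single-dose bleomycin or repetitive PBS (edgeR adjusted p = 0.0972, 0.0579 and 0.148) and where a gate needed 2 or 4 markers (0.0576 and 0.109). It was also lost with gates on full counts and with no library block (edgeR adjusted p = 0.0524 and 0.941). Few cells of the MatrixFB gate with MEFB markers held much of both counts in repetitive PBS and single-dose bleomycin. In repetitive PBS, 1 of its 766 cells had at least 3 MEFB markers and held 33 of the 75 Fabp4 UMIs and 33 of the 88 Fabp5 UMIs of the gate. In single-dose bleomycin 6 of 207 cells had them, with 13 of 51 Fabp4 UMIs and 39 of 75 Fabp5 UMIs. The MatrixFB gate of repetitive bleomycin, with 43 Fabp4 and 138 Fabp5 UMIs, had 0 cells with at least 3 MEFB markers. That of single-dose PBS, with 1 and 12 UMIs, also had 0 cells with at least 3 MEFB markers. With such cells left out of both gates, an alternative chosen after the values were seen, 5 of the 10 genes passed, where 24.6% of all genes did. Fabp4 was then 2.66 lower in LipoFBs on the log2 scale (edgeR adjusted p = 0.0167), and the Fabp5 call was lost (−0.43, edgeR adjusted p = 0.329). With cells of at least 2 MEFB markers left out, Fabp4 was 2.26 lower (edgeR adjusted p = 0.011), and the calls of Fabp5 and Pnpla2 were lost (edgeR adjusted p = 0.343 and 0.0764). This cut took mostly LipoFB cells, 808 of 4056 in repetitive PBS beside 13 of 766 MatrixFB cells. In repetitive bleomycin it took 259 of 2061 LipoFB and 42 of 1865 MatrixFB cells. The MEFB list holds Upk1b, which was among the 10 leading genes of the LipoFB gate in repetitive PBS.

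Cd36 was 1.12 higher without passing the test (edgeR adjusted p = 0.0544), and it passed with DESeq2 (adjusted p = 0.0475), with no filter on low counts (edgeR adjusted p = 0.0167) and without repetitive bleomycin (edgeR adjusted p = 0.00249). Lpl differed by −0.20 (SE 0.29, edgeR adjusted p = 0.693) and was higher in LipoFBs in 2 of 4 libraries, both of them from bleomycin lungs. Plin3 differed by −0.16 (edgeR adjusted p = 0.291), and Plin4 had too few UMIs to be tested. The median over the 9 genes was 0.39, beside 0.02 over all genes.

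A wider list of 54 genes of droplets, fatty acid uptake, triglyceride synthesis and fat oxidation was counted beside the 10. In the FB gate after a single dose 4 were higher and 4 lower of 44 tested, beside 9.06% and 3.73% of all genes, with a median log2 ratio of 0.15. The 4 higher were Plin1, Adipoq, Acsl4 and Cebpa, and 26 of the 27 Plin1 UMIs and 58 of the 71 Adipoq UMIs of single-dose bleomycin lay in the barcode that held most Fabp4. Without that barcode, an alternative chosen after the values were seen, only Acsl4 was higher and 4 were lower of 42 tested, beside 9.01% and 3.76% of all genes. After repetitive doses 0 were higher and 3 lower of 47, beside 5.8% and 1.65% of all genes, with a median of −0.07. Dgat2, which makes triglyceride in its last step, and G0s2, an inhibitor of the Pnpla2 enzyme, were lower in both experiments. Dgat2 was at 17.7 and 5.89 CPM and at 7.58 and 2.27 CPM. G0s2 was at 1226 and 339 CPM and at 1255 and 304 CPM, log2 ratios of −1.85 and −2.04, the lowest of the list in both experiments.

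The highest ratio of the list after a single dose was that of Adipoq, with 0 and 71 UMIs, at least 13.8-fold higher, most of them in that barcode. After repetitive doses it was that of Slc27a6, a fatty acid transporter of the cell surface, at 13.1 and 26.3 CPM, short of 2-fold in all FBs. In repetitive LipoFBs Slc27a6 was past 2-fold, at 14.9 and 39.8 CPM. In the LipoFB gate 0 were higher and 3 lower of 42 after a single dose, beside 5.93% and 3.55% of all genes. After repetitive doses 1 was higher and 4 lower of 47, beside 5.3% and 1.45%. Between the LipoFB and MatrixFB gates, 16 of 43 listed genes were higher in LipoFBs and 2 lower by the edgeR test, beside 11.5% and 13.4% of all genes. These included G0s2, 1.66 higher (adjusted p = 6.35e-05), Slc27a6, 1.96 higher (adjusted p = 8.13e-05), and Dgat2, 1.48 higher (adjusted p = 0.00378).

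In the organoids, the 10 genes were compared in the AEC2 gate (1327 cells with normal FBs and 1101 with fibrogenic FBs) and in the FB gate (2114 and 3223 cells). None of 9 genes tested was past 2-fold in AEC2s, where 0.34% of all genes were, 0.282% higher and 0.0577% lower. In the organoid FBs, Lpl was lower and the other 9 were not past 2-fold, where 0.893% of all genes were, 0.212% higher and 0.681% lower.

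Fabp5 in AEC2s was at 5706 CPM with normal FBs and 3745 CPM with fibrogenic FBs, a log2 ratio of −0.61 [−0.62, −0.60]. Plin2 was at 394 and 314 CPM (−0.33), and Cd36 at 200 and 151 CPM (−0.40). All 3 were somewhat lower with fibrogenic FBs. Pparg was at 30.8 and 37.1 CPM (0.26), Pnpla2 at 66.0 and 62.5 (−0.08) and Plin3 at 87.2 and 94.4 (0.11). Lpl, Fabp3, Fabp4 and Plin4 were low, from 0.0729 to 6.58 CPM. The 8 FB markers summed to 85.1 CPM in the AEC2 gate of the normal FB organoids and to 163 CPM in that of the fibrogenic FB organoids, and their part in these values was not tested.

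Organoid FBs had Lpl at 983 CPM when they came from PBS lungs and 405 CPM when they came from bleomycin lungs, a log2 ratio of −1.28 [−1.29, −1.27]. The order is the reverse of that in the freshly sorted FBs, where bleomycin was higher in both experiments. The difference between these settings was not tested. At 2000 UMIs per cell, 53.6% and 29.4% of organoid FBs had an Lpl UMI, against 1.36% and 0.999% of AEC2s. Fabp4 was at 42.0 and 70.5 CPM (0.73) and no barcode held more than 4.86% of it. Plin2 was at 167 and 123 CPM (−0.43), and Pparg at 15.6 and 17.4 (0.14).

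Fabp5 was at 114 and 151 CPM in organoid FBs (0.40), and the ratio was −0.36 where a gate needed 4 markers. Sftpc, the surfactant gene that marks AEC2s, was at 934 and 859 CPM in these FBs and at 82085 and 83446 CPM in AEC2s, so AEC2 RNA was present in the FB sums. Its part in the Fabp5 value was not tested. Cd36 was at 5.44 and 3.85 CPM, with a log2 ratio that ran from −0.77 to 0.53 over the alternatives, Fabp3 at 12.7 and 10.1 CPM, Pnpla2 at 9.62 and 12.1 CPM and Plin3 at 51.9 and 54.9 CPM. Only 6 and 4 organoid cells met the LipoFB gate, so LipoFBs were not compared there.

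**Figure D5:**
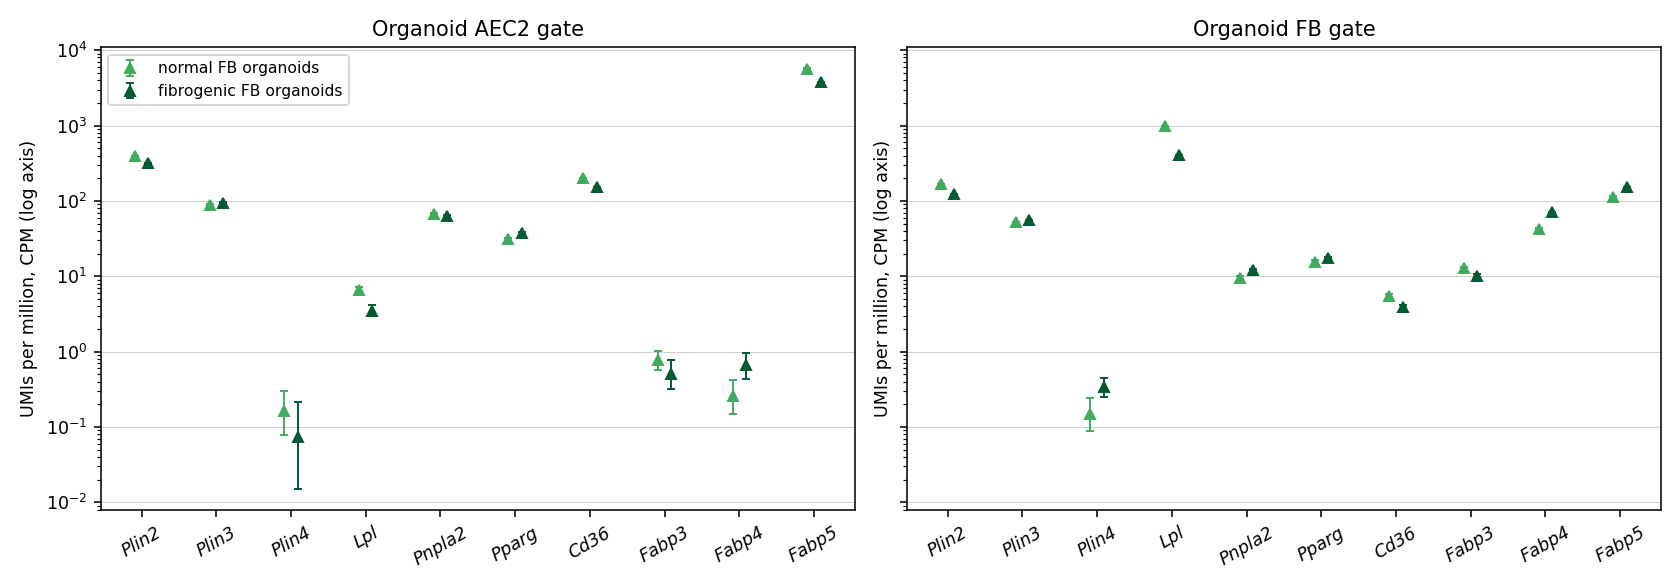
Level of each of the 10 genes in the AEC2 gate and the FB gate of the 2 organoid libraries, as CPM on a log axis. Points are single libraries and bars are exact 95% Poisson intervals. In the FB gate Lpl is at 983 and 405 CPM, the widest gap of the 10, and in the AEC2 gate Fabp5 is at 5706 and 3745 CPM.

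Over 42 sums of a gate in a library, which share no cells, the genes whose log2 level followed a member most closely among 12394 genes were named. For Plin2 they were Cd14 (Pearson r = 0.85), Tkt (0.82) and Pparg (0.81). For Pparg they were Nfe2l2 (0.81), Plin2 (0.81) and Cd14 (0.78). For Lpl they were Tnfaip2 (0.95), Slc7a2 (0.92) and Clmp (0.91), and r between Lpl and Plin2 was 0.09. The sums span several lineages and libraries of unlike depth, so r describes these sums alone.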

How the data were processed

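The authors made droplet libraries from sorted GFP+ lung cells and from dissociated organoids. Their processing notes in the labels name Cell Ranger 3.0.1, Seurat 3 and build mm10. The deposited values are raw UMI counts, whole numbers that were not normalized. Free RNA was not corrected for here. Counts were analysed with Python 3.11.15, numpy 2.4.6, scipy 1.17.1 and pandas 2.3.3, and drawn with matplotlib 3.10.9.

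Barcodes needed 2000 UMIs and a mitochondrial share within 3 scaled median absolute deviations above the library median. They were thinned to 2000 UMIs for gating and for shares of cells, while levels are full counts summed per gate. The split of FBs by MEFB markers was made on full counts. Gates below 20 cells were not compared between libraries, while the MEFB split gives values for as few as 1 cell. No doublet caller was run, and barcodes with at least 3 markers of more than 1 lineage were left out. Gates were compared by edgeR 4.0.16 in R 4.3.3, with the library as a block because both gates come from the same pooled mice, and by DESeq2 1.42.0 as an alternative. Bleomycin and PBS were compared in the same way over both lung experiments, with the experiment as a block, a test added after the values were seen. Genes named were the 10, and, of the wider list, those past 2-fold the same way in both lung experiments and the extremes of each comparison. Those named from the gate test, the genes in the highest Fabp4 barcodes, and further listed genes were chosen after their values were seen, as were the MatrixFB comparisons. The members and lists were chosen with earlier results of these data known. Procedures were tested on simulated data. Alternatives were other marker minimums, cell filters, pseudocounts, floors, scalings, and leaving out libraries or barcodes.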

Additional observations from a re-analysis of the deposited data

Results flagged for a closer look

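In 3 genes, the counting intervals of the same contrast lay on opposite sides of 0 in a pair of cell groups. Each contrast compares 2 libraries, and the difference between the groups was not tested. Fabp4 in the MatrixFB gate had a log2 ratio of bleomycin over PBS of 3.47 after a single dose, from 1 and 51 UMIs, and of −1.50 after repetitive doses, from 75 and 43 UMIs. The repetitive ratio turned to 0.0671 where a gate needed 4 markers. In repetitive PBS 1 cell held 33 of the 75 UMIs, which the counting interval does not take into account. In organoids with fibrogenic over normal FBs, Fabp5 had a log2 ratio of −0.61 in AEC2s and 0.40 in FBs. Pnpla2 had −0.08 in AEC2s and 0.30 in FBs. The Fabp5 ratio in organoid FBs was −0.36 where a gate needed 4 markers.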

How the results depend on the processing

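The counts of the 10 genes called stayed within 1.5 times the reported ones in 96 recomputations and left that range in 14, and the cause was not tested. With 5 CPM added, 3 genes were called in repetitive FBs in place of 7, and 1 in place of 2 in the repetitive MatrixFB gate. The shares of all genes past 2-fold were lower under that setting too, 2.47% higher and 1.02% lower in repetitive FBs and 1.28% and 0.762% in the MatrixFB gate. Gates needing 4 markers called 1 gene (Lpl) in organoid AEC2s in place of 0, where 0.194% of all genes were higher and 0.123% lower. In the repetitive MatrixFB gate 1 was called with 4 markers (3.23% and 1.52% of all genes), full-count gates (3.56% and 1.59%), a mean over cells (3.84% and 1.57%) and each gene's top barcode left out (3.32% and 1.47%). In the single-dose MatrixFB gate, 2 in place of 5 were called with full-count gates (6.67% and 3.64% of all genes), and 3 with at least 50 UMIs (4.75% and 2.71%).

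Fabp4 in the repetitive MatrixFB gate turned to 0.0671 with 4 markers and to 0.0858 with full-count gates. Lpl was higher with bleomycin past 2-fold in every lung comparison under every alternative run, as was Plin2 lower in repetitive LipoFBs. For the gate test the blocked fit was the reported one: with no replicate block, 2 genes (Plin2 and Fabp3) in place of 6 were called (3.6% of all genes in place of 24.9%), and Lpl turned to 0.20. Without single libraries 3 to 7 genes were called, where 18.3% to 21.3% of all genes were, the fewest members without single-dose PBS (20.6%), and the Lpl difference, which did not pass the test in any fit, ran from −0.50 to 0.12. The test of bleomycin against PBS had the experiment as its block. With no replicate block, 0 genes were called in the FB gate in place of 9 and 0 in the LipoFB gate in place of 5, and with no filter on low counts 8 were called in the LipoFB gate (11.7% of all genes in place of 11.4%). Leaving out a library there leaves no residual degrees of freedom, and the value is then the other experiment's ratio.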

Other observations

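The extremes of the wider list in the comparisons not described above were short of 2-fold in the organoids and past it in most of the subset gates. Within single-dose LipoFBs, the log2 ratio of bleomycin over PBS ran from −1.58 for Dgat2 to 0.92 for Slc27a6, and in repetitive LipoFBs from −1.68 for G0s2 to 1.36 for Slc27a6. In the MatrixFB gate it ran from −1.35 for Lipe, the hormone-sensitive lipase, to 1.40 for Acsl4, which activates long fatty acids, after a single dose, and from −1.16 for Cebpd to 1.10 for Slc27a6 after repetitive doses. The Lipe ratio equals that of Fabp3 in the single-dose MatrixFB gate, which rested on few UMIs, and no intervals are given for these extremes. In organoid AEC2s the log2 ratio of fibrogenic over normal FBs ran from −0.24 for Fitm1 to 0.48 for G0s2. In organoid FBs it ran from −0.69 for Slc27a6 to 0.27 for Angptl4, which encodes an inhibitor of lipoprotein lipase. Each ratio compares 2 libraries.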
